A study of Mus musculus with 8 samples.

Results

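Zfp followed by a number is the mouse name of a large class of genes that encode zinc finger proteins. The deposited expression table lists 348 genes with such a symbol, and the 204 of them with a mean of at least 1 FPKM over the 8 libraries are described here. FPKM is a fragment number divided by transcript length and by the mapped reads of the library, so levels can be compared between genes. They were chosen by their symbol and their mean FPKM alone, so their levels are given as a description. All 204 are protein-coding genes of GENCODE release M21 on GRCm38, the assembly behind mm10.

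Bone marrow-derived macrophages (BMDMs) from 3-month-old mice were grown for 6 days in medium conditioned by L929 fibroblasts, and their total RNA was sequenced, with libraries from 4 mice per genotype. The control mice were LysM Cre/Cre, with Cre recombinase driven from the lysozyme M locus (Lyz2), which is active in macrophages, their precursors and neutrophils. The K2KO mice carried the same Cre/Cre together with KLF2 flox/flox, so a disrupted Lyz2 locus is common to both groups and the groups differ in the floxed Klf2 alleles. Column names mark every library as vehicle and number them from 0, while the sample titles run from 1, so a column gives the genotype but not the mouse. They are called LysM0 to LysM3 and K2KO0 to K2KO3 here.

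How many reads lie behind an FPKM value is unknown. The depth of the other libraries was estimated at 0.896 to 1.32 times that of LysM0. The estimate is the commonest ratio to LysM0 among genes above 0 and under 0.05 FPKM in both libraries. It takes most such genes to hold the same small number of fragments in both. Macrophage markers were abundant, with a mean of 1807 FPKM for Cd68, 525 for Csf1r and 436 for Adgre1. Summed over the 9 macrophage markers, the level was 4056 to 4283 FPKM in the LysM and 3795 to 3957 FPKM in the K2KO libraries, and of the 9 Mertk was higher and Lyz2 lower by the thresholds given below. All 6 lymphocyte, 3 listed erythroid and 5 fibroblast markers had a mean under 1 FPKM, and the erythroid marker Hbb-bt was listed at 0 throughout. The summed level of the fibroblast markers was 0.163 to 1.31 FPKM in LysM and 0.53 to 3.23 FPKM in K2KO, that of the lymphocyte markers 0.186 to 2.001 and 1.05 to 2.40 FPKM, and that of the erythroid markers 0 to 0.978 and 0.422 to 1.25 FPKM. Of the markers of neutrophils and their precursors, S100a9 had the highest mean, 129 FPKM, and Ly6g the lowest, 0.211 FPKM. Summed over the 7 markers of this list, the level was 179 to 304 FPKM in the LysM and 169 to 295 FPKM in the K2KO libraries. Among them Camp passed those thresholds, with a log2 fold change of -1.14 (limma adjusted p = 0.0178). Lyz2 itself was at 18.6 ± 2.88 FPKM (SD, n = 4) in LysM and 13.2 ± 1.73 FPKM (SD, n = 4) in K2KO. Of the 4 dendritic cell markers, Ccr7 had the highest mean, 1.30 FPKM, and did not pass. Their sum was 0.51 to 1.79 FPKM in LysM and 1.24 to 3.34 FPKM in K2KO. In each of these low lists the highest sum was that of a K2KO library and the ranges overlapped. The part of other cells in the values below was not tested.

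Klf2, the gene that was floxed, was not clearly lower in the libraries labelled K2KO. It was at 44.1, 52.9, 64.7 and 72.8 FPKM in the LysM libraries and at 45.5, 41.6, 59.2 and 59.3 FPKM in the K2KO libraries, and these ranges overlap. The log2 fold change was -0.18 (standard error, SE, 0.17, adjusted p = 0.460 by limma; exact two-sided permutation test, p = 0.429). Klf2 lies at chr8:72319033-72321656 on the plus strand. This FPKM is for the gene as a whole, with no values by exon, so it cannot tell whether the floxed part was lost. Directions below are therefore given for the libraries labelled K2KO.

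Most proteins with a Zfp name carry C2H2 fingers, in which a zinc ion is held by 2 cysteines and 2 histidines and the helix between them reads a few bases of DNA. Fingers that follow each other are joined by a short conserved linker. A large share of these proteins also carries a KRAB domain, which binds the co-repressor Trim28. Trim28 brings the histone methyltransferase Setdb1 and heterochromatin proteins to the bound site, a system best known for silencing transposable elements. Zfp36, Zfp36l1 and Zfp36l2 share the name but not the fold. Their CCCH fingers hold zinc by 3 cysteines and 1 histidine and bind AU-rich elements of mRNAs, after which deadenylases shorten the poly(A) tail. Zfp36 is also called tristetraprolin and is known in macrophages for limiting cytokine mRNAs.

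The first finger of each of these 3 RNA-binding proteins is shown to set their shared CCCH pattern against the C2H2 pattern below. Capitals mark the codons of the 3 cysteines and the histidine, and each stretch of 60 bases is given 5′ to 3′ on the coding (minus) strand of GRCm38. It lies at chr7:28378158-28378217 for Zfp36, chr12:80110189-80110248 for Zfp36l1 and chr17:84186668-84186727 for Zfp36l2.
Zfp36: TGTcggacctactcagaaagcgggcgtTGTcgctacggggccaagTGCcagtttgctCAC
Zfp36l1: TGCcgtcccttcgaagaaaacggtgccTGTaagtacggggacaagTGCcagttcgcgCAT
Zfp36l2: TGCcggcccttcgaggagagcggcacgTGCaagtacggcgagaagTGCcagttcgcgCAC
Over this finger Zfp36 shared 42 of 60 bases with Zfp36l1 and 40 with Zfp36l2, and the latter pair shared 49.

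For the C2H2 fold, 1 finger each is shown from Zfp791 and Zfp869, members with large increases on chromosome 8, from Zfp160, a member of low GC content, and from Zfp467 and Zfp524, the members with the largest decreases among those that passed the thresholds given below. Capitals mark the codons of both cysteines and both histidines, and the bases after the last capitals encode the linker region. The 84 bases lie at chr8:85110562-85110645 (minus strand) for Zfp791, chr8:69707295-69707378 (minus) for Zfp869, chr17:21025799-21025882 (plus) for Zfp160, chr6:48439150-48439233 (minus) for Zfp467 and chr7:5017805-5017888 (plus) for Zfp524.
Zfp791: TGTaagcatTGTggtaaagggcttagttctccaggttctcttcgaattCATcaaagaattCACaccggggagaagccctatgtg
Zfp869: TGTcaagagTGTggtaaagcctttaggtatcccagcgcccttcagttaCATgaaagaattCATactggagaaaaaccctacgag
Zfp160: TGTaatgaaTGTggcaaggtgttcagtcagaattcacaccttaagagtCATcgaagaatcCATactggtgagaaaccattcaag
Zfp467: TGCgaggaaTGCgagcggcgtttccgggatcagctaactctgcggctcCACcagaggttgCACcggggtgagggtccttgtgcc
Zfp524: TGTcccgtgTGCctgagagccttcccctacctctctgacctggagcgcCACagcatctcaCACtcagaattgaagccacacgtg
The fingers of Zfp791, Zfp869 and Zfp160 are followed by the conserved linker, and those of Zfp467 and Zfp524 are not. G or C stood at 32.1%, 35.7% and 39.3% of the third codon positions in the first 3 and at 67.9% and 75% in the other two.

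The members were mostly expressed at a low level. Their mean ranged from 1.02 to 419 FPKM with a median of 2.90, against a median of 9.98 FPKM over all 10920 genes tested. Of the 204, 104 lay between 1 and 3 FPKM, 64 between 3 and 10, and 36 at 10 or above. Just inside the limit were Zfp689 and Zfp568, both at 1.02 FPKM, and just outside it Zfp931 at 0.998 and Zfp287 at 0.991 FPKM. Of the 144 listed genes under the limit, 97 had a mean of at least 0.1 FPKM, 47 a lower one, and 9 of these were listed at 0 in every library. Of the 204 members, 197 had a mean of at least 1 FPKM in both genotypes. The other 7 were under 1 FPKM in LysM only (Zfp455, Zfp568, Zfp606, Zfp689, Zfp791, Zfp800 and Zfp945), so they passed the limit through the group in which they are higher, and 2 of them passed the thresholds below.

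By a pattern search of the translated coding sequences, 96 members encode a KRAB domain with C2H2 fingers, 101 encode C2H2 fingers without a KRAB match and 3 are the CCCH proteins. No C2H2 finger was matched in the other 4, Zfp330, Zfp503, Zfp703 and Zfp839. Among members with a match, the median number of C2H2 fingers was 9, and Zfp142 had the most, 36. The median was 12 in KRAB members and 7 in the members without a KRAB match. A KRAB domain that departs from the pattern is missed, so the members without a match may hold some. Chromosome 7 holds 49 members, chromosome 17 holds 21, chromosome 13 holds 19 and chromosome 8 holds 17. KRAB genes were 25 of 49, 15 of 21, 15 of 19 and 11 of 17 of these.

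The highest levels after the Zfp36 family were those of Zfp703 (49.2 FPKM), Zfp710 (47.3), Zfp385a, an RNA-binding protein of hematopoietic cells (44.2), Zfp263 (29.9) and Zfp414 (29.3). None of these 5 passed the thresholds. The value of Zfp414 is uncertain, because the annotated gene Gm20507 overlaps it on the same strand and shares near-identical sequence with it. Zfp710 came closest, at 51.5 ± 2.97 FPKM (SD, n = 4) in LysM and 43.1 ± 1.74 FPKM (SD, n = 4) in K2KO. All its K2KO values lay below all its LysM values, and its log2 fold change of -0.256 (limma adjusted p = 0.0242) fell just short of the fold required. The 96 KRAB members together summed to 249 to 281 FPKM in the LysM libraries and 257 to 288 in the K2KO libraries, less than Zfp36 alone in every library.

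Which of these genes differed between the genotypes was tested with limma on log2(FPKM + 0.1), fitted over all 10920 genes with a mean of at least 1 FPKM. To pass, a gene needed a Benjamini-Hochberg adjusted p below 0.05 and a log2 fold change beyond 0.26 in either direction. In these bulk samples, fewer cells of a type and less RNA per cell cannot be told apart. Of the 204 members, 25 passed, or 12.3%, against 18.4% of all genes tested. Of the 25, 15 were higher in the libraries labelled K2KO (9.84% of all genes tested were) and 10 lower (8.61% of all). At an unadjusted p under 0.05 there were 63 members, beside 4126 of all 10920 genes tested. The 4 K2KO values lay wholly above the 4 LysM values in 25 members (12.9% of all genes tested) and wholly below in 13 (10.2% of all). The groups thus did not overlap in 38 of 204 members, or 18.6%, against 23.1% of all genes. By the thresholds and by overlap the members' share was under that of all genes tested. The members were also lower in level, with a median of 2.90 against 9.98 FPKM. Their log2 fold changes were less precise, with a median SE of 0.115 against 0.0926. A share among genes of like level was not taken, so these shares do not tell whether Zfp genes changed less than other genes.

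The split between directions moved with the scaling. Upper-quartile scaling gave 20 higher and 7 lower among the members, and 64.1% of all calls were then higher against 53.3% as reported. Quantile normalization gave 7 higher and 9 lower members, while 14.0% of all genes were called and 54.4% of those calls were higher. A local regression of each library on the GC content and length of the transcripts, called the GC and length correction here and taken up further down, gave 3 higher and 8 lower. The number of calls also rested on single libraries. It was 43 (21.1% of the members) without K2KO3 and 2 (0.98%) without LysM3, and the share of all genes tested moved alongside, at 25.98% and 3.09% in the same fits. Without LysM1, K2KO0, K2KO1 or K2KO2 it was 9 or fewer, with 4.54% to 6.74% of all genes called. Zfp791 and Zfp326 passed in all 8 fits with a library left out, and 8 of the 25 passed in at least 4 of them.

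**Figure D1:**
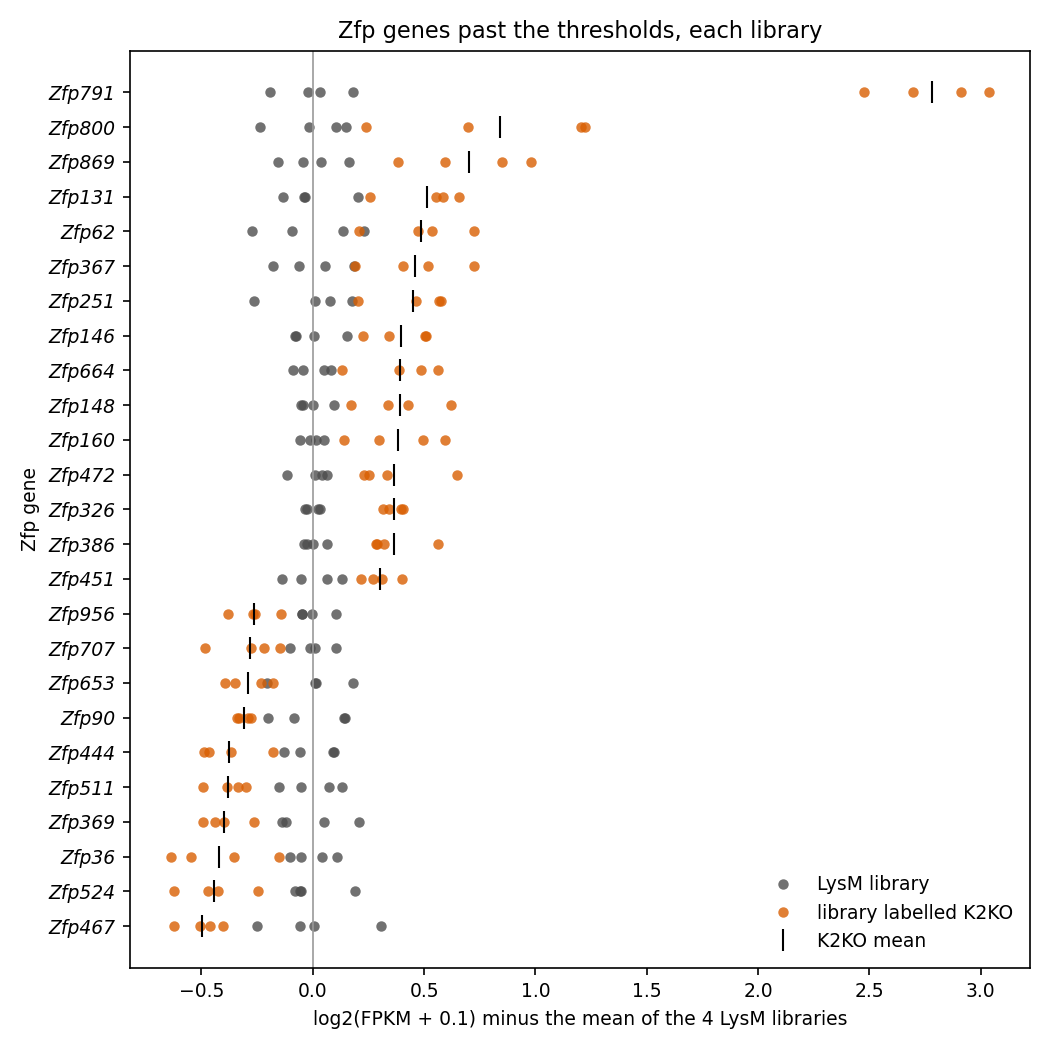
Each row is 1 of the 25 Zfp genes past the thresholds, and each point 1 library, as log2(FPKM + 0.1) minus the mean of the 4 LysM libraries. Grey points are LysM and orange points K2KO libraries, and the black tick is the K2KO mean. Zfp791 stands far to the right with a K2KO mean of 2.78, and the K2KO means of the other 24 lie within 1 of the LysM mean.

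Zfp791, a KRAB gene, had the largest difference of all members. Its level was 0.387, 0.439, 0.316 and 0.369 FPKM in the LysM libraries. In the libraries labelled K2KO it was 2.98, 2.54, 3.80 and 3.47 FPKM. Every K2KO value was several times every LysM value, and the mean was 8.47 times as high. On the log2(FPKM + 0.1) scale, which understates the change of low genes, the difference was 2.78 (SE 0.18, adjusted p = 7.18e-05 by limma; exact two-sided permutation test, p = 0.0286, the smallest that 4 against 4 libraries allow). Zfp791 passed under all 11 other settings and all 8 fits with a library left out, with a log2 fold change between 1.599 and 3.04. It encodes 15 C2H2 fingers by the pattern search, and an exact match to the conserved linker occurs 8 times in its translated coding sequence.

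Zfp791 lies at chr8:85108553-85123095 on the minus strand, 12.8 Mb from Klf2. Its nearest tested neighbour is Man2b1, which encodes the lysosomal alpha-mannosidase, 10.3 kb away on the plus strand. Man2b1 was at 193 ± 9.04 FPKM (SD, n = 4) in LysM and 399 ± 29.6 FPKM (SD, n = 4) in K2KO, a log2 fold change of 1.04 (SE 0.07, adjusted p = 0.00012 by limma). Wdr83os, 26.2 kb away, went the other way, from 99.4 ± 8.37 to 54.9 ± 9.23 FPKM (SD, n = 4 each; log2 fold change -0.87, limma adjusted p = 0.00623). Of the 15 other genes tested within 200 kb of Zfp791, 3 were higher and 6 lower, or 60% against 18.4% of all genes tested. The same window around 3 other members that rose held fewer tested genes and fewer calls. Called were 1 of 7 genes near Zfp869 (Ndufa13, lower) and 1 of 4 near Zfp800 (Arf5, lower). Near Zfp62 none of 3 passed by limma (2 of the 3 had an unadjusted p under 0.05). These windows hold too few genes to tell whether that of Zfp791 is unusual. Zfp791 overlaps no listed gene and has no near-identical copy.

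Within 20 Mb of Klf2 there were 9 members, of which 2 passed, both higher. That is 22.2%, near the 18.4% of all genes tested. Zfp791 is among the members through its K2KO level, so this share partly follows from the limit on mean FPKM. Zfp869, a KRAB gene at chr8:69706332-69710724 (minus strand), lies 2.61 Mb from Klf2. It was at 4.00, 3.65, 3.44 and 3.18 FPKM in LysM and at 5.43, 6.48, 7.11 and 4.67 FPKM in K2KO, without overlap. The log2 fold change was 0.70 (SE 0.13, adjusted p = 0.0129 by limma), and it passed in 7 of 8 fits with a library left out and under 10 of 11 other settings. Zfp868, Zfp963 and Zfp866, KRAB-type neighbours within 81 kb of Zfp869, changed by 0.23, -0.08 and 0.20 and did not pass. Zfp709 and Zfp617, the members nearest to Klf2 at 0.423 and 0.384 Mb, changed by 0.09 and 0.29 (limma adjusted p = 0.751 and 0.104). Zfp930 and Zfp330 changed by -0.01 and -0.03.

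**Figure D2:**
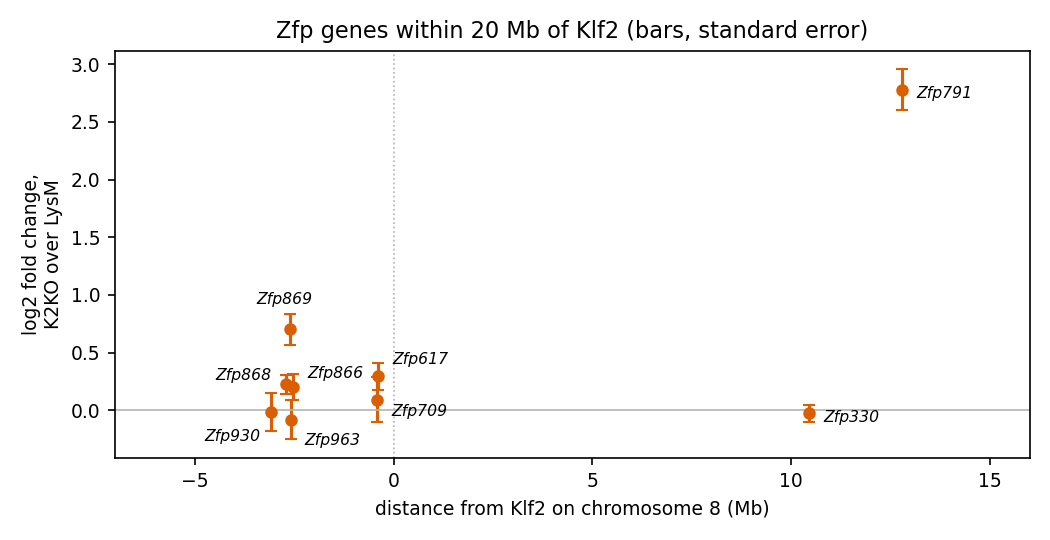
The 9 Zfp genes within 20 Mb of Klf2, by distance from Klf2 on chromosome 8 (Mb) and log2 fold change between the libraries labelled K2KO and LysM, with bars of 1 standard error. Zfp791 at 12.8 Mb (2.78) and Zfp869 at -2.61 Mb (0.70) stand above the other 7, which lie between -0.08 and 0.29.

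Among the other members that were higher, Zfp326 had the tightest values. It encodes a protein of a complex that couples splicing with transcript elongation and lies at chr5:105876565-105915818. Its level was 3.84, 3.68, 3.71 and 3.86 FPKM in LysM and 4.71, 4.81, 4.999 and 5.03 FPKM in K2KO. The groups are well apart, with a log2 fold change of 0.37 (SE 0.06, adjusted p = 0.00986 by limma). Zfp800 (chr6:28239927-28398005) was at 0.985, 0.756, 1.02 and 0.899 FPKM in LysM and at 2.26, 2.23, 1.54 and 1.09 FPKM in K2KO. K2KO3 sat close to the LysM libraries and K2KO0 and K2KO1 far above them (log2 fold change 0.84, SE 0.24, adjusted p = 0.0364 by limma). It passed in 2 of 8 fits with a library left out.

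Zfp131, a BTB zinc finger protein, was at 3.03, 2.55, 2.55 and 2.38 FPKM in LysM and at 4.19, 3.89, 3.98 and 3.15 FPKM in K2KO (log2 fold change 0.51, limma adjusted p = 0.0186). Zfp386, a KRAB gene, was at 7.08, 7.24, 7.54 and 7.03 FPKM in LysM and at 8.84, 8.80, 10.7 and 9.04 FPKM in K2KO (log2 fold change 0.36, limma adjusted p = 0.0149). After the GC and length correction both lost the call, with Zfp131 at 0.29 and Zfp386 at 0.12 (limma adjusted p = 0.0865 and 0.274). Neither gene had overlapping groups, and in Zfp131 K2KO3 was again the lowest K2KO library. Zfp148, a transcription factor that binds GC-rich promoters, rose by 0.39 (limma adjusted p = 0.0282). Zfp451, a SUMO ligase, rose by 0.30 (limma adjusted p = 0.0339). Zfp367, Zfp251, Zfp146 and Zfp664 rose by 0.39 to 0.46 and Zfp160 and Zfp472 by 0.38 and 0.37, all without overlap between the groups. Zfp62 rose by 0.48, but its lowest K2KO value, 2.99 FPKM, lay under its highest LysM value, 3.03 FPKM.

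Of the members that passed and were lower, Zfp467 had the largest change. It is known for favouring fat over bone cell fate in marrow stroma and lies at chr6:48427697-48445825. Its level was 15.9, 13.9, 20.5 and 16.6 FPKM in LysM and 12.03, 10.8, 12.5 and 11.6 FPKM in K2KO. The groups did not overlap, and LysM2 was the highest library (log2 fold change -0.50, SE 0.11, adjusted p = 0.0193 by limma). Zfp524 was at 24.1, 24.1, 23.6 and 28.5 FPKM in LysM and at 16.2, 18.0, 18.6 and 21.1 FPKM in K2KO (log2 fold change -0.44, limma adjusted p = 0.0171). After the GC and length correction Zfp467 stood at -0.44 and Zfp524 at -0.22, and neither passed (limma adjusted p = 0.0585 and 0.0534). The value of Zfp524 is uncertain, because the annotated gene Gm44973 overlaps it on the same strand and shares near-identical sequence with it.

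Zfp511 was at 21.1, 22.0, 18.0 and 19.4 FPKM in LysM and at 15.4, 14.2, 16.3 and 15.9 FPKM in K2KO (log2 fold change -0.38, limma adjusted p = 0.0147). Zfp444 was at 30.7, 33.9, 29.2 and 34.1 FPKM in LysM and at 23.1, 22.7, 24.7 and 28.2 FPKM in K2KO (log2 fold change -0.37, limma adjusted p = 0.0209). Both had groups without overlap, and Zfp511 passed in 7 of 8 fits with a library left out and Zfp444 in 3. The KRAB genes Zfp369, Zfp90 and Zfp707 fell by 0.40, 0.31 and 0.28 on the log2 scale. Zfp653 and Zfp956 fell by 0.29 and 0.26, and the groups of Zfp653 overlapped. Zfp956 shares exon sequence with Zfp783 on the same strand. Zfp771 had the lowest log2 fold change of all members, -0.62, and did not pass (limma adjusted p = 0.0673). With the GC and length correction it was -0.26, and over the settings and the fits with a library left out it ranged from -0.83 to -0.26. It was named after its value was seen. Its K2KO values were 6.36, 6.06, 5.29 and 10.6 FPKM, of which K2KO3 lay within the LysM range of 8.80 to 12.9.

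Among 24 members with a known role that were listed by name, 4 were higher (Zfp131, Zfp148, Zfp326 and Zfp451), 1 was lower (Zfp36) and 19 did not pass. The share that passed, 20.8%, was near the 18.4% of all genes tested, and none of the 5 passed by limma after the GC and length correction (3 had an unadjusted p under 0.05). Zfp91, a ubiquitin ligase of the non-canonical NF-kB pathway, was at 14.2 ± 0.771 FPKM (SD, n = 4) in LysM and 16.8 ± 1.41 FPKM (SD, n = 4) in K2KO. Its adjusted p was 0.0455 by limma, but its log2 fold change of 0.24 was under the fold required. Cntf overlaps Zfp91 on the same strand. Zfp622, a factor of late ribosome subunit maturation, was at 29.0 ± 1.79 and 24.4 ± 2.33 FPKM (SD, n = 4 each; log2 fold change -0.25, limma adjusted p = 0.0548). Zfp593, related to a factor of the same process, was at 6.65 ± 0.474 and 5.66 ± 1.22 FPKM (limma adjusted p = 0.216). Zfp598, which marks collided ribosomes, changed by 0.07, and Zfp207, a spindle assembly factor, by 0.16 (limma adjusted p = 0.117). The activator Zfp143 (-0.06), Zfp281 (0.12), Zfp384 (-0.11), Zfp217 (-0.19), Zfp335 (0.03), Zfp106 (0.07), Zfp830 (0.06) and Zfp318 (-0.03) did not pass either. Of the proteins known from silencing of retroviruses and imprinted genes, Zfp638 (0.18), Zfp932 (-0.06) and Zfp568 (0.15) did not pass, and Zfp57, Zfp445, Zfp809 and Zfp30 were not among the members.

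The CCCH genes were taken apart. Zfp36 was the most abundant of all 204 members. Its level was 461, 446, 492 and 516 FPKM in the LysM libraries and 374, 431, 307 and 327 FPKM in the libraries labelled K2KO. All K2KO values were lower, K2KO1 only just, and the means were 478 ± 31.4 and 360 ± 55.0 FPKM (SD, n = 4 each). The log2 fold change was -0.42 (SE 0.11, adjusted p = 0.0292 by limma; exact two-sided permutation test, p = 0.0286). It was called in 3 of 8 fits with a library left out, where the adjusted p ranged from 0.0293 to 0.0982. Under 6 of 11 other settings it was not called, among them the replicate block (adjusted p = 0.0547 by limma), the GC and length correction (0.0561) and quantile normalization, where the log2 fold change was -0.23 (0.217). Zfp36 lies at chr7:28376784-28380253 on the minus strand, where Gm44710 overlaps it on the opposite strand.

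Zfp36l1 was at 62.3, 67.5, 72.5 and 78.2 FPKM in LysM and at 82.1, 69.0, 52.5 and 48.2 FPKM in K2KO. The K2KO values spread around the LysM values, and the log2 fold change of -0.18 did not pass (SE 0.16, adjusted p = 0.424 by limma; exact two-sided permutation test, p = 0.371). Zfp36l2 was at 75.5, 74.95, 76.3 and 82.7 FPKM in LysM and at 84.3, 88.5, 67.9 and 64.5 FPKM in K2KO. Its log2 fold change was -0.03 (SE 0.11, adjusted p = 0.847 by limma; exact two-sided permutation test, p = 0.8286). In all 3 genes K2KO0 and K2KO1 lay above K2KO2 and K2KO3. Whether the change of Zfp36 differs from that of its paralogs was not tested.

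**Figure D3:**
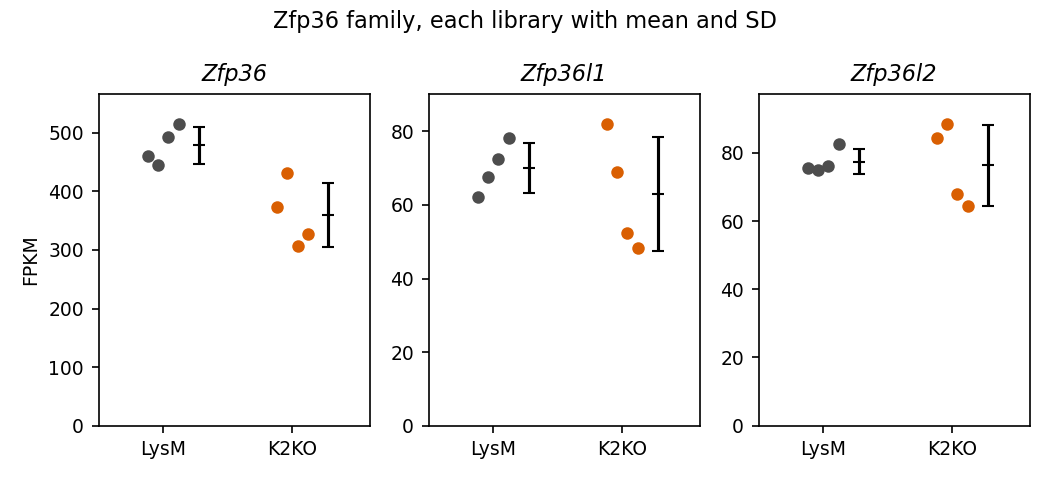
FPKM of Zfp36, Zfp36l1 and Zfp36l2 in each library (points, grey for LysM and orange for K2KO), with the mean and SD of each genotype (n = 4) beside them and axes from 0. The 4 K2KO points of Zfp36 lie between 307 and 431, below all LysM points, while those of its paralogs straddle the LysM points.

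The next list holds genes counted here as partners of Zfp36. Among them are deadenylase, decapping and exosome subunits, kinases that inactivate Zfp36, and 14-3-3 proteins that bind it when it is phosphorylated. The list also holds Ppp2ca, Ppp2cb, Ppp2r1a, Xrn1, Tnrc6a, Tnrc6b, Gigyf2 and Eif4e2. Elavl1, Hnrnpd, Khsrp, Tia1, Tial1 and Pabpc1, which encode other RNA-binding proteins, are part of it too. Of these 53 tested partner genes, 4 were higher and 2 lower, or 11.3% against 18.4% of all genes tested. The higher ones were Mapkapk3, a kinase that phosphorylates Zfp36 (17.8 ± 2.31 to 24.9 ± 1.17 FPKM, SD, n = 4 each; log2 fold change 0.49), the decapping factor Dcp1a (0.35), the deadenylase Cnot6 (0.35) and the exonuclease Xrn1 (0.29). The lower ones were the exosome subunits Exosc5 (-0.35) and Exosc8 (-0.35). With a library left out, Mapkapk3 passed in 7 of 8 fits, Cnot6 and Exosc5 in 3, and Dcp1a, Xrn1 and Exosc8 in 2. Ywhah, the most abundant of the list at 305 FPKM, changed by 0.17 and did not pass. Mapkapk2, the better known kinase of Zfp36 and the more abundant of the pair, went from 102 ± 6.40 to 87.4 ± 2.26 FPKM (SD, n = 4 each), with all K2KO values below all LysM values. Its log2 fold change of -0.22 (limma adjusted p = 0.0344) was short of the fold required, and it was named after its value was seen. After the GC and length correction 1 gene of the list was higher and 2 were lower, beside 3.75% and 4.66% of all genes. Mapkapk3 still passed (0.54), but Dcp1a, Cnot6 and Xrn1 stood at 0.23, 0.08 and 0.03 and did not, nor did Exosc5 and Exosc8. The median log2 fold change of the list was 0.02, against 0.01 over all genes tested. With the correction it was -0.05, against -0.02.

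Of 28 genes known as Zfp36 targets, 21 were tested, of which 8 were lower and 2 higher, beside 8.61% and 9.84% of all genes tested. After the GC and length correction 6 were lower and 1 higher (4.66% and 3.75% of all genes then were). Ier3, Zfp36 and Vegfa no longer passed, with log2 fold changes of -0.43, -0.39 and 0.38, from -0.59, -0.42 and 0.43 before. The list includes Zfp36 itself, which binds its own mRNA. The chemokines Ccl2 (15.1 ± 4.83 to 7.53 ± 1.71 FPKM), Ccl3 (153 ± 13.3 to 93.1 ± 21.6 FPKM) and Ccl4 (164 ± 14.5 to 101 ± 10.2 FPKM; SD, n = 4 each) fell by 0.96, 0.74 and 0.70 on the log2 scale. Il10, which encodes an anti-inflammatory cytokine, fell by 0.65, and Cxcl2, Ier3 and Nfkbiz were also lower. With a library left out, Ccl4 passed in 8 of 8 fits and Ccl3 in 5, but Cxcl2 and Ier3 in 3, Ccl2 and Nfkbiz in 2, and Il10 in 1. The 2 that were higher were Hif1a (0.58), which passed in 8 of these fits, and Vegfa (0.43), which passed in 1. Among the targets that passed, the groups of Ccl2 and Vegfa overlapped. Tnf, the best known target, was at 4.73 and 6.38 FPKM and did not pass (log2 fold change 0.44, limma adjusted p = 0.0511); it was named after its value was seen. The median of the list was -0.28, against 0.01 over all genes tested. After the GC and length correction it was -0.16, against -0.02. The relation of these genes to the level of Zfp36 was not tested.

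The 31 genes of the KRAB co-repressor machinery that are reported gave 4 higher and 1 lower, or 16.1% against 18.4% of all genes tested. Trim28, the co-repressor that KRAB domains bind and the most abundant of the list, was at 64.0 ± 2.38 FPKM (SD, n = 4) in LysM and 55.7 ± 4.11 FPKM (SD, n = 4) in K2KO. Its groups did not overlap, but it did not pass (log2 fold change -0.20, limma adjusted p = 0.0578). Rcor1, a subunit of the CoREST complex, rose by 0.59 and the chromatin remodeller Atrx by 0.48. Cbx1, a heterochromatin protein, rose by 0.44, and Pphln1 was also higher. The histone deacetylase Hdac1 fell by 0.45, with groups that overlapped. With a library left out, Cbx1 passed in 8 of 8 fits, Rcor1 and Atrx in 6, Pphln1 in 4 and Hdac1 in 2. After the GC and length correction 2 were higher (Rcor1 and Cbx1) and 2 lower (Hdac1 and Hdac2), beside 3.75% and 4.66% of all genes. Atrx then stood at 0.18 and Pphln1 at 0.17, and neither passed. The median of the list was 0.06, and -0.02 after the correction.

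The change of the Zfp genes was then set against the GC content of their transcripts. As a group the members are low in GC, with a median of 46.4% against 50.2% over all genes tested, and 129 of 204 lie below that median. KRAB members had a median of 41.6% and C2H2 members without a KRAB match 51.4%. When all genes tested are divided into 8 equal groups by GC content, the lowest of them holds 73 members, or 35.8%. The median log2 fold change of the members was 0.19, 0.18, 0.17, 0.09, 0.02, -0.10, -0.05 and -0.19 from the lowest to the highest group. Over all genes it was 0.20, 0.13, 0.08, 0.03, -0.01, -0.05, -0.10 and -0.17. The median of the members was above 0 in the first 5 groups and below 0 in the last 3, and that of all genes above 0 in the first 4 and below 0 in the last 4. The median of all genes fell at every step and that of the members did not, and the difference between them was not tested. Of the 15 members that were higher, 14 lay below the all-gene median GC content, and of the 10 that were lower, 8 lay above it. Of all genes called, 81.9% of the higher lay below that median and 81.2% of the lower above it, so the members' split was near that of all genes.

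**Figure D4:**
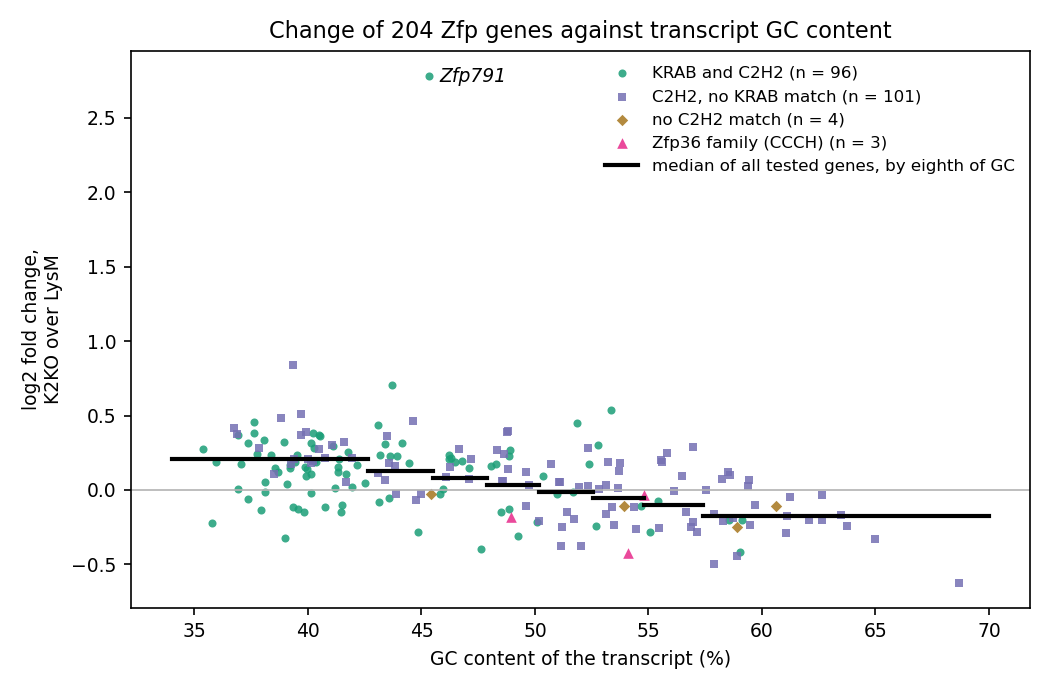
Log2 fold change between the libraries labelled K2KO and LysM against the GC content of the transcript (%), 1 point per Zfp gene, coloured by the kind of zinc finger, with the median of all genes tested as black bars for 8 equal groups of GC content. The points fall from left to right along the bars, whose medians go from 0.20 to -0.17, and Zfp791 stands alone at 2.78.

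Across the 204 members, Spearman's rho between log2 fold change and GC content was -0.51, and across 10899 tested genes with a known GC content it was -0.43. It was -0.68 across the 101 C2H2 members without a KRAB match and -0.20 across the 96 KRAB members. GC content outside the coding sequence gave -0.52 and that of the coding sequence -0.43. Transcript length went with the change in the other direction (0.36), as did the number of exact matches to the linker (0.31), and mean FPKM gave -0.44. These are descriptions across genes that share libraries and base composition, and genes are not independent replicates. The median log2 fold change of the members was 0.09, against 0.01 over all genes. It was 0.15 in KRAB members and 0.06 in C2H2 members without a KRAB match. After the GC and length correction these medians were -0.03, -0.06 and 0.0055, against -0.02 over all genes.

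The members were also ordered by level. Of the 104 members at 1 to 3 FPKM, with a median GC content of 41.6%, 5 were higher and none lower (20 had an unadjusted limma p under 0.05), or 4.81%. Zfp791 and Zfp800, 2 of these 5, were under 1 FPKM in LysM and are among the members through their K2KO level, so the count at this end partly follows from the limit. Of the 64 at 3 to 10 FPKM, 10 were higher and 4 lower, or 21.9%. Of the 36 at 10 FPKM or above, with a median GC content of 53.8%, none was higher and 6 were lower (15 at an unadjusted p under 0.05), or 16.7%. Of all genes tested, at every level, 18.4% were called. The median SE of the members was 0.147, 0.0895 and 0.0814 from the lowest to the highest level, against 0.0926 over all genes. The 99 members with at least 3 linkers gave 9 higher and 1 lower with a median of 0.16, and the other 102 members outside the Zfp36 family gave 6 and 8 with a median of 0.02. These are 10.1% and 13.7% called, against 18.4% of all genes tested, and the median GC contents were 42.5% and 51.8%. Their median SEs were 0.136 and 0.0927, and their median levels 2.05 and 4.64 FPKM, against 9.98 FPKM over all genes. With the GC and length correction both medians were -0.03, with 3 higher and 3 lower among the first and none higher and 5 lower among the others (17 and 27 had an unadjusted limma p under 0.05). The members at 1 to 3, 3 to 10 and 10 FPKM or above then gave 1, 2 and 0 higher and 3, 1 and 4 lower, with 13, 21 and 11 at an unadjusted limma p under 0.05. These are 3.85%, 4.69% and 11.1%, against 8.41% of all genes with that correction.

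Genes of other zinc finger families are given beside these for comparison, without a test of the difference. Of 30 Zbtb genes 6 were higher and none lower (16 at an unadjusted limma p under 0.05; median 0.11), and of 13 Zkscan or Zscan genes 2 and none (2 at an unadjusted p under 0.05; median 0.06). Among 9 Klf genes 2 were higher and none lower (2 at an unadjusted p under 0.05; median -0.04). The 22 genes with a KRAB match but another name gave 3 higher and none lower (6 at an unadjusted p under 0.05). Their median log2 fold change was 0.17 and their median GC content 39.6%, beside 0.15 and 41.6% for the KRAB members. The shares called were 20%, 15.4%, 22.2% and 13.6% in these 4 groups, against 18.4% of all genes tested. With the GC and length correction the calls went from 6 to 0 in the Zbtb genes (8 at an unadjusted limma p under 0.05), from 2 to 1 in the Zkscan or Zscan and in the Klf genes, and from 3 to 1 in the KRAB genes with another name. Of all genes tested, 3.75% were then higher and 4.66% lower. The corrected medians of these 4 groups were 0.07, 0.004, -0.09 and 0.03 in the same order, beside -0.06 for the KRAB members.

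The K2KO libraries did not share one GC trend. For each library the members' deviation from the LysM mean was taken and set against GC content. Spearman's rho was -0.47, -0.50 and -0.59 in K2KO0, K2KO1 and K2KO2 but -0.13 in K2KO3. In LysM2 it was -0.57, and it was 0.19, 0.10 and 0.33 in LysM0, LysM1 and LysM3. The LysM libraries make up the mean they are set against, so their deviations add up to 0 for each gene, a trend in one forces the opposite in the others, and their rho is not comparable with that of the K2KO libraries. The median deviation of the members was 0.09, 0.13 and 0.11 in K2KO0 to K2KO2 and 0.003 in K2KO3, and it was 0.05 in LysM2. K2KO3 thus had the weakest trend of the 4 K2KO libraries. Without K2KO3 the members gave 26 higher and 17 lower calls, a median of 0.14 and a rho of -0.57. Without LysM2 they gave 8 and 5 calls, a median of 0.12 and a rho of -0.60. That is 6.37% of the members, against 9.43% of all genes in the same fit.

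**Figure D5:**
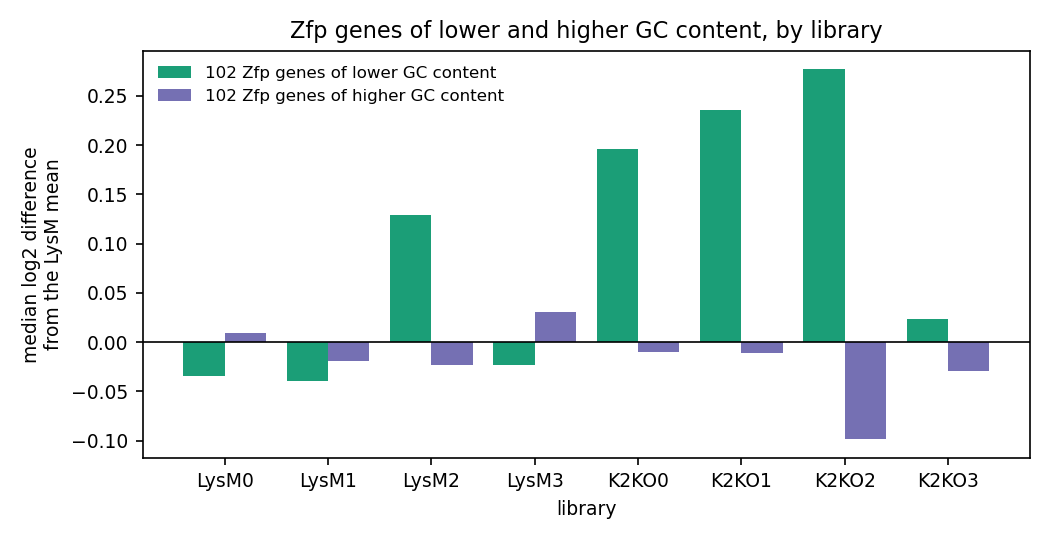
Median difference from the LysM mean on the log2(FPKM + 0.1) scale in each library, for the 102 Zfp genes of lower GC content (green) and the 102 of higher GC content (purple). The bars of lower GC content reach 0.20, 0.24 and 0.28 in K2KO0 to K2KO2 but 0.02 in K2KO3, and the LysM bars are set against a mean that holds the library itself.

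The GC and length correction was used to see which members stood apart from this trend. After it, rho across the members was 0.07, and their median log2 fold change was -0.03 against -0.02 over all genes. Among the members, 11 passed the thresholds, 3 higher and 8 lower, against 8.41% of all genes (3.75% higher and 4.66% lower), which is 5.39% of the 204. Of the 25 calls made without the correction, 7 were made again in the same direction. They were Zfp791 (2.67), Zfp869 (0.63) and Zfp146 (0.39) among the higher, and Zfp369 (-0.46), Zfp444 (-0.44), Zfp90 (-0.34) and Zfp511 (-0.33) among the lower. Zfp36 kept most of its difference (-0.39) but missed the threshold (limma adjusted p = 0.0561). The differences of Zfp148 and Zfp451 went from 0.39 and 0.30 to 0.10 and 0.03, and those of Zfp160 and Zfp62 from 0.38 and 0.48 to 0.11 and 0.22. Zfp800 (0.58), Zfp251 (0.40), Zfp367 (0.32), Zfp664 (0.30) and Zfp472 (0.19) did not pass either, nor did Zfp956 (-0.22), Zfp707 (-0.19) and Zfp653 (-0.09). Zfp326 stood at 0.23 (limma adjusted p = 0.0494), under the fold required. Passing only after the correction were Zfp710 (-0.28) and the KRAB genes Zfp738 (-0.63), Zfp958 (-0.36) and Zfp874b (-0.33). Zfp738 and Zfp874b share near-identical stretches with other genes, so their values are uncertain. None of the 25 changed sign. Why the libraries differ in their GC trend was not tested.

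KLF2 binds the sequence CACCC, so promoters were searched for these letters on either strand. RefSeq promoter windows of GRCm38.p6, from 250 bases before to 50 after the start, were at hand for 169 of the 204 members. CACCC or its reverse complement, GGGTG, stood in 53.8% of the members' 208 windows and in 57.5% of all 32851 windows. It stood in 12 of 20 windows of members that were higher and in 4 of 6 windows of members that were lower. The windows follow the RefSeq starts, which need not be those of the GENCODE genes given above. That of Zfp869 lies outside its GENCODE gene and that of Zfp36 within it. No match was present in these windows or in those of Zfp791. A match is a description and not a binding site, and the absence of one says only that these letters are not in the window.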

How the data were processed

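The authors deposited one table of FPKM per gene and library, made with Cufflinks, with no pooling of replicates. Their methods name a stranded total RNA kit, TopHat2 and mm10, and the submitters' processing notes name STAR, Cufflinks, Cuffdiff and mm10; the aligner therefore remains uncertain, and the labels and the methods also name different RNA isolation kits. Versions are not given in the sources used here. FPKM hold no read counts, so no counting interval or detection limit is given, and no count test was used.

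FPKM were compared on log2(FPKM + 0.1) for the 10920 of 23761 listed genes with a mean of at least 1, with limma 3.58.1 in R 4.3.3 (lmFit, eBayes with an intensity trend), all 8 libraries and no covariate. P-values were adjusted over all tested genes by the Benjamini-Hochberg method. The thresholds (adjusted p of 0.05, absolute log2 fold change of 0.26) are those of the study. Single genes were also compared by exact permutation over 35 splits. Transcript GC content, length and coordinates came from GENCODE M21, matched by gene identifier for 23645 listed genes. Domains were found by letter patterns in translated coding sequences. Near-identical copies (at least 95% over 200 bases) were found with blastn 2.17.0 and overlapping exons with bedtools 2.31.1. The local regression used a span of 0.3. The fit was tested on simulated data.

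The genes named are the Zfp36 family, the 8 members with the highest mean, the 8 called members that rose most and the 8 that fell most without overlap, members next to the limit or within 20 Mb of Klf2, members of the role list, Klf2, the marker genes, and of each other list the most abundant and up to 4 called genes. 1 gene of the KRAB co-repressor list is not reported here. The members, gene lists and tests were chosen with earlier results of these data known. The KRAB and linker patterns, the KRAB genes with other names, the windows of 200 kb, the promoter search, the fingers shown and the further genes named were chosen after values were seen. Settings tried were pseudocounts of 1 and 0.01, filters of 0.1 and none, upper-quartile and quantile scaling, no intensity trend, GC content with or without length correction, a replicate block, and each library left out.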

Additional observations from a re-analysis of the deposited data

Results flagged for a closer look

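In the genes named, 8 of 120 groups of 4 libraries held a value far from the other 3, by Dixon's test on the gap to the nearest value, and chance gives about 1 in 20, or 6. In LysM3, Zfp36l2 was at 82.7 FPKM with the others between 74.95 and 76.3, and Zfp524 at 28.5 FPKM with the others between 23.6 and 24.1. Zfp568 was at 1.19 FPKM in K2KO3 against 1.03 to 1.04 in the other K2KO libraries. Zfp91 was at 15.3 FPKM in LysM2 against 13.7 to 13.9. LysM0 held 3 such values, with Zfp598 at 13.3 FPKM against 11.4 to 11.6, Zfp622 at 26.3 FPKM against 29.7 to 30.01, and Zfp106 at 11.1 FPKM against 12.1 to 12.2. Mapkapk3 was at 23.2 FPKM in K2KO1 against 25.3 to 25.7.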

How the results depend on the processing

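Over 19 alternative settings no called value changed direction. Over all results and settings, 863 values kept their direction and their side of the threshold, 206 lost it, 8 gained it, and 25 counts, medians or correlations moved. The number of members called was 25 as reported, 2 without a filter on low values (2 higher, 0 lower by limma, with 69 at an unadjusted p under 0.05), 16 with quantile normalization (7 higher), 11 with the GC content and length correction (3 higher), 11 with GC content alone (4 higher), and 5 with the replicate block and the correction (3 higher, 2 lower). With a library left out it ranged from 2 to 43, with 2 to 26 higher and 0 to 17 lower. Over all genes, 2014 were called as reported, 483 without a filter, 917 and 1156 with the corrections, 716 with the block and correction, and 337 to 2837 with a library left out. Without a filter more genes are tested. The cause of the other differences was not tested.

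The members' median log2 fold change of 0.09 was 0.024 with quantile normalization, -0.034 with the GC content and length correction (also with the block) and 0.017 with GC content alone. With a library left out it ranged from 0.07 to 0.14. The rank correlation of the members with GC content was -0.51 as reported, 0.074 and 0.017 after these corrections, 0.074 with the block added, and -0.60 to -0.44 with a library left out; the corrections remove that trend by construction.

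The Zfp36 log2 fold change lost its call without a filter (-0.42, adjusted p = 0.0989), with quantile normalization (-0.23, 0.217), with the GC content and length correction (-0.39, 0.0561), GC content alone (-0.37, 0.0659), the replicate block (-0.42, 0.0547) and both together (-0.39, 0.114). With a library left out it ranged from -0.51 to -0.35, Zfp36l1 from -0.32 to -0.07 and Zfp36l2 from -0.11 to 0.04.

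The numbers that end the column names were not found to pair the libraries. The deviations of same-numbered libraries from their group means correlated at -0.07, 0.02, 0.07 and -0.06. With the replicate block 19 members were called (11 higher, 8 lower), and 2057 genes in all.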
